A study of Mus musculus with 6 samples.

Results

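A set of 10 genes whose products clear apoptotic cells or take up modified lipoproteins and microbes were followed in colonic lamina propria (LP) MΦs with and without the IL10 receptor β chain. The genes were *Mertk*, *Axl*, *Gas6*, *Pros1*, *Mfge8*, *Cd36*, *Msr1*, *Marco*, *Olr1* and *Tgm2*, chosen by name, and all 10 were among the 14097 genes of the deposited table. All 10 also passed the filter, a level of 50 normalized counts in 1 library or more, as did 11067 genes. RNA was sequenced in 6 libraries of sorted P3/P4 MΦs (CD45+CD11b+CD11cintCD103-CD64+Ly6C-MHCII+), 1 for each of 2 genotypes at 1, 3 and 12 weeks of age. The knockout mice were *Il10rb-/-* and the control mice *Il10rb+/-*, so that the controls carried 1 null allele. All were untreated and on the 129SvEv background. The null allele is germline, so every cell type of an *Il10rb-/-* mouse lacks the receptor chain, which is shared with the receptors for other cytokines such as IL22. The 3- and 12-week libraries were each made from 1 mouse, and the 1-week libraries from pools of mice. No group had a second library, and differences within an age therefore lack replicates.

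Efferocytosis is the engulfment of dying cells. MERTK and AXL are receptor tyrosine kinases of the TAM family, which recognise phosphatidylserine on the dying cell through the bridging ligands GAS6 and protein S (*Pros1*). MFGE8 bridges phosphatidylserine to αv integrins, and tissue transglutaminase (*Tgm2*) is a crosslinking enzyme that takes part in the formation of the engulfing portal. CD36, MSR1 (scavenger receptor A), MARCO and LOX-1 (*Olr1*) are scavenger receptors for oxidised lipoproteins, and CD36 also takes part in apoptotic cell uptake. Resident MΦs of the gut clear epithelial and immune cells that die in the LP, and IL10 is a known inducer of several genes of MΦ uptake.

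The values are normalized counts, which are read counts divided by a size factor for each library. The reads on listed genes ranged from 6700337 in the 3-week *Il10rb+/-* library to 40754971 in the 12-week *Il10rb+/-* library. *Il10rb* was low in each library labelled *Il10rb-/-*, with 12.0, 24.6 and 27.4 normalized counts at 1, 3 and 12 weeks against 1221, 939 and 1107 in the controls. All 10 resident macrophage markers passed the filter. The 1-week libraries differed in sex, since 4 Y-linked genes held 1123 reads in the *Il10rb+/-* pool and between 5 and 46 in each of the other 5 libraries. Genotype and sex therefore cannot be told apart at that age, nor age and sex in a control step from 1 week. The 12-week *Il10rb-/-* library differed from its control in its markers. Its summed fibroblast markers were 327 normalized counts against 3927 in its control, its B and plasma cell markers 1911 against 17670, and its neutrophil markers 13341 against 1963. *Ly6c2*, which encodes the Ly6C antigen that the gate excludes, was at 2611 against 143. It was also higher in the 3-week knockout library, at 285 against 9.73 normalized counts, from 324 and 4 reads. The 1-week libraries differed in markers too. There 6 of 6 fibroblast and 6 of 10 tested epithelial markers were over 3-fold higher in the knockout, against 2.75% of all genes. The fibroblast sums were 1140 in the knockout and 159 in the control, and the epithelial sums 981 and 189. The part of these shifts in the results was not tested at any age. Results over the ages are given below with and without 12 weeks.

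The promoter sequences of 4 genes that were over 3-fold apart at 12 weeks are shown for reference. Windows of 250 bases before the annotated start were taken from RefSeq (GRCm38.p6), which held 8 of the 10 genes, all but *Msr1* and *Tgm2*. *Gas6*, *Pros1* and *Cd36* were the genes with reads in every library that were lower by over 3-fold in the 12-week knockout, and *Olr1* was higher. The windows are chr8:13494536-13494785 (minus strand, *Gas6*), chr16:62854057-62854306 (plus strand, *Pros1*), chr5:17835897-17836146 (minus strand, *Cd36*) and chr6:129507166-129507415 (minus strand, *Olr1*). The *Cd36* window lies inside the span of the gene in the GENCODE annotation, which also has transcripts that start farther upstream. Capitals mark matches to any of 5 motifs on either strand.
Gas6: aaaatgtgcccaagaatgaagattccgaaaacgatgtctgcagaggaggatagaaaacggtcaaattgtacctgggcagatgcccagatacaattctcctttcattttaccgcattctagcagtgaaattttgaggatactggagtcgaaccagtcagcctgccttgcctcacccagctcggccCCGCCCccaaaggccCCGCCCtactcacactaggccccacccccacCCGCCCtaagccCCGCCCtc
Pros1: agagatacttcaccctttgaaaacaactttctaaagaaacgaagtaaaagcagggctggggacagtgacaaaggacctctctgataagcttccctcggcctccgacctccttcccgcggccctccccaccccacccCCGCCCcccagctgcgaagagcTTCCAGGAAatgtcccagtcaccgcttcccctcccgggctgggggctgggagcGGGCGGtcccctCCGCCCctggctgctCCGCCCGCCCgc
Cd36: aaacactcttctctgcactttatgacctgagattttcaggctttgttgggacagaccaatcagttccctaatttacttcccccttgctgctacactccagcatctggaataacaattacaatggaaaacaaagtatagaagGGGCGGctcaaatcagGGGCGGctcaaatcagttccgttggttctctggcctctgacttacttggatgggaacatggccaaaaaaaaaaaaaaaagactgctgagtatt
Olr1: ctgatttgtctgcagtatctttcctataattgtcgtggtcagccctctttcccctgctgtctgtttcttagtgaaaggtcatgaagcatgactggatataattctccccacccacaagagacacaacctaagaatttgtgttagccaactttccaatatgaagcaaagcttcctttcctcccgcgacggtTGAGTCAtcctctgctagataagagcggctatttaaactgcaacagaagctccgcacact
The motifs were TTCNNNGAA (STAT), TGANTCA (AP-1), GGGCGG (GC box), GGG and TTCC set 3 bases apart (NF-kB), and GAAA repeated after 2 bases (ISRE). The *Pros1* window held 1 STAT match, TTCCAGGAA, which begins 92 bases before the start. A STAT match was present in 7.02% of all 32851 windows of that length. The *Olr1* window held 1 AP-1 match, TGAGTCA, which begins 60 bases before the start, against 6.75% of all windows. GC boxes were found 4 times in the *Gas6* window, 5 times in *Pros1* with 2 of them overlapping, and 2 times in *Cd36*. A GC box was present in 32.7% of all windows. The *Marco* window held 1 NF-kB match (4.65% of windows), and no window of the 8 held an ISRE match (2.98%). A match describes the letters of the window only.

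**Figure D1:**
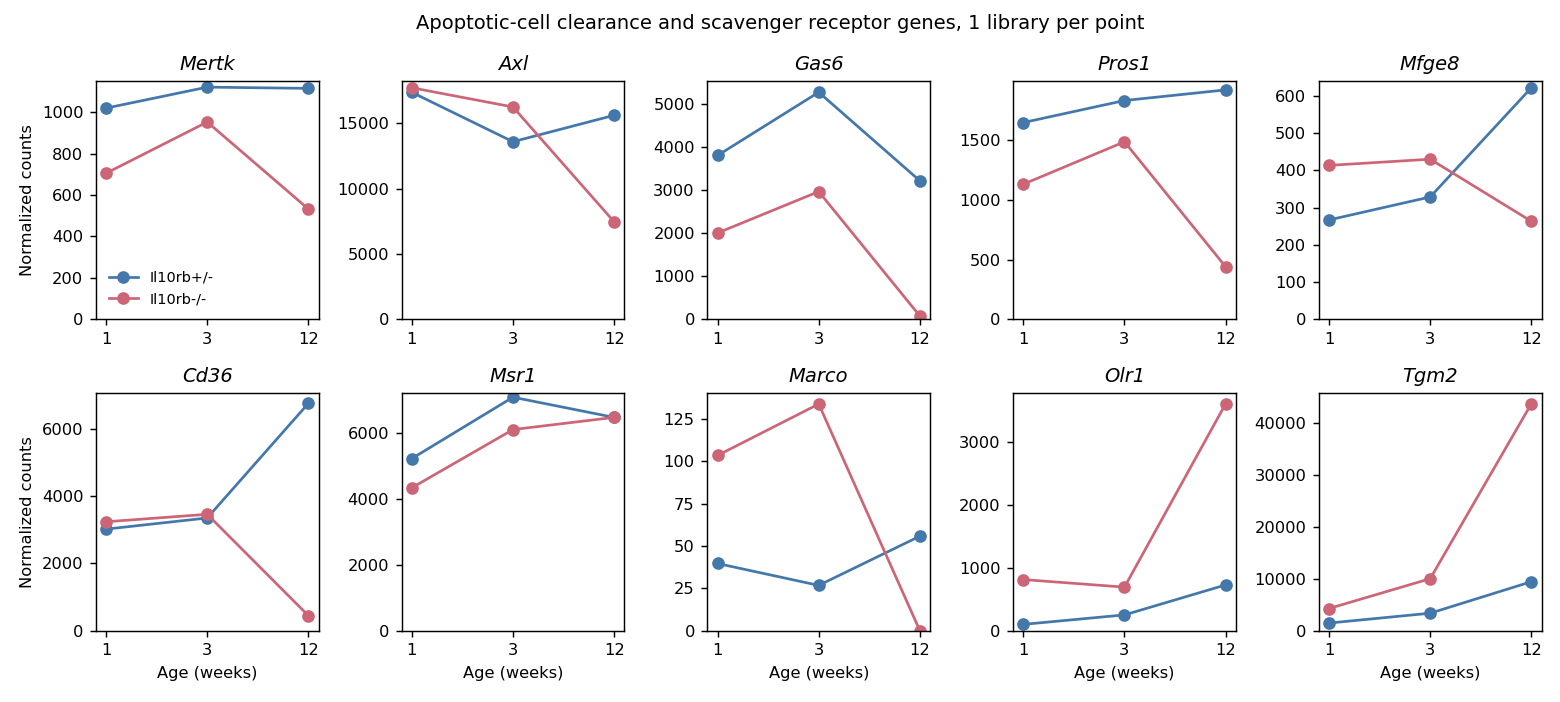
Normalized counts (y axis, from 0, a separate scale for each gene) of the 10 genes against age in weeks (x axis, the 3 ages evenly spaced). Blue points are *Il10rb+/-* and red points *Il10rb-/-* libraries, 1 library per point, and lines join the libraries of a genotype. *Mertk*, *Gas6* and *Pros1* lie lower in *Il10rb-/-* MΦs at each age, *Olr1* and *Tgm2* lie higher, and *Gas6*, *Cd36* and *Marco* come close to 0 in the 12-week *Il10rb-/-* library.

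Both TAM receptors were present in every library, and the 12-week *Il10rb-/-* library had the lowest value of each. *Mertk* (ENSMUSG00000014361, chromosome 2 from 128698956 to 128802894 of GRCm38) had 1020, 1122 and 1116 normalized counts in *Il10rb+/-* MΦs at 1, 3 and 12 weeks. In *Il10rb-/-* MΦs it had 705, 953 and 532. The 3 knockout values were all below the 3 control values. The log2 ratio of *Il10rb-/-* over *Il10rb+/-* was -0.53 at 1 week (interval -0.69 to -0.37), -0.24 at 3 weeks (-0.39 to -0.07) and -1.07 at 12 weeks (-1.18 to -0.95), where *Mertk* was 2.10-fold lower. Intervals here are exact (Clopper-Pearson) 95% intervals from the reads of both libraries. They cover counting error alone and say nothing of the spread between mice.

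*Axl* (ENSMUSG00000002602, chromosome 7 from 25757273 to 25788705) did not follow *Mertk* at the younger ages. It had 17374, 13589 and 15614 normalized counts in *Il10rb+/-* MΦs and 17723, 16249 and 7451 in *Il10rb-/-* MΦs at 1, 3 and 12 weeks. The genotypes overlapped, because the 1- and 3-week knockout values lay among or above the control values. The log2 ratio was 0.03 at 1 week, with an interval of -0.01 to 0.06 that includes 0, and 0.26 at 3 weeks (0.21 to 0.30). At 12 weeks it was -1.07 (-1.10 to -1.04), the same 2.10-fold lower value as for *Mertk*. On a scale of normalized counts per kb of exon, *Axl* exceeded *Mertk* by between 10.4- and 21.6-fold across libraries, and by 12.1-fold in both 12-week libraries. *Tyro3*, the other receptor of the TAM family, was at 0 to 13.2 normalized counts and did not pass the filter.

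The TAM ligands were lower in *Il10rb-/-* MΦs at every age, and *Gas6* was close to 0 at 12 weeks. *Gas6* (ENSMUSG00000031451, chromosome 8 from 13465374 to 13494490) had 3810, 5283 and 3220 normalized counts in *Il10rb+/-* MΦs. In *Il10rb-/-* MΦs it had 2006, 2970 and 72.0. Each knockout value lay below each control value. The log2 ratio was -0.93 at 1 week (-1.02 to -0.84), -0.83 at 3 weeks (-0.91 to -0.75) and -5.48 at 12 weeks (-5.77 to -5.22), which is 44.8-fold lower and rests on 113 reads in the knockout library. A stretch of 34 bases of its exons overlaps those of *Tmem255b* on the other strand.

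*Pros1* (ENSMUSG00000022912, chromosome 16 from 62854307 to 62929346), which encodes protein S, the other TAM ligand, had 1650, 1835 and 1924 normalized counts in *Il10rb+/-* MΦs. In *Il10rb-/-* MΦs it had 1132, 1489 and 439. These groups did not overlap either. Its log2 ratio was -0.54 at 1 week (-0.67 to -0.42), -0.30 at 3 weeks (-0.43 to -0.18) and -2.13 at 12 weeks (-2.25 to -2.01), or 4.38-fold lower. Per kb of exon, *Gas6* was between 2.68- and 4.62-fold above *Pros1* in 5 libraries, whereas in the 12-week *Il10rb-/-* library it stood at 0.263 of the *Pros1* level.

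*Mertk*, *Gas6* and *Pros1* were thus the 3 of the 10 genes whose *Il10rb-/-* libraries all lay below the *Il10rb+/-* libraries, and none lay wholly above. Among all 11067 genes, 2.78% had the 3 knockout libraries lower without overlap and 2.86% had them higher. Scaled by total reads in place of the size factors, *Gas6* overlapped and *Olr1* lay wholly above.

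The bridging protein gene *Mfge8* (ENSMUSG00000030605, chromosome 7 from 79133768 to 79149060) was on different sides of its control with age. It had 267, 329 and 622 normalized counts in *Il10rb+/-* MΦs at 1, 3 and 12 weeks, and 413, 430 and 263 in *Il10rb-/-* MΦs. The knockout library was the higher at 1 and 3 weeks and the lower at 12 weeks. The log2 ratios were 0.63 (0.38 to 0.88), 0.39 (0.11 to 0.67) and -1.24 (-1.41 to -1.08), all within 3-fold.

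*Cd36* (ENSMUSG00000002944, chromosome 5 from 17781690 to 17888801), the class B scavenger receptor, was nearly level between genotypes until 3 weeks and 15.1-fold lower in the 12-week knockout library. It had 3017, 3349 and 6752 normalized counts in *Il10rb+/-* MΦs and 3235, 3458 and 448 in *Il10rb-/-* MΦs. The 12-week libraries held both the highest and the lowest of the 6 values. The log2 ratio was 0.10 at 1 week (0.02 to 0.18), 0.05 at 3 weeks (-0.04 to 0.14) and -3.91 at 12 weeks (-4.03 to -3.81).

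The class A receptors took different courses. *Msr1* (ENSMUSG00000025044, chromosome 8 from 39581685 to 39642673) had 5211, 7069 and 6458 normalized counts in *Il10rb+/-* MΦs and 4327, 6089 and 6459 in *Il10rb-/-* MΦs, and it was the one gene of the 10 at an equal level in both 12-week libraries. Its log2 ratio was -0.27 at 1 week (-0.33 to -0.20), -0.22 at 3 weeks (-0.28 to -0.15) and 0.00 at 12 weeks (-0.04 to 0.04). The 12-week value was -0.02 with TMM scaling (the trimmed mean of M values) and -0.22 with total-read scaling.

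*Marco* (ENSMUSG00000026390, chromosome 1 from 120474538 to 120505024) was the least abundant of the 10 genes. It had 39.7, 26.8 and 55.8 normalized counts in *Il10rb+/-* MΦs and 103, 134 and 0 in *Il10rb-/-* MΦs, from 40, 11, 118, 69, 152 and 0 reads. The knockout library was thus the higher at 1 and 3 weeks and held no *Marco* read at 12 weeks. Its log2 ratio was 1.38 at 1 week (0.80 to 1.98) and 2.32 at 3 weeks (1.44 to 3.35), a 4.99-fold difference that rests on 11 control reads. At 12 weeks it was 29.2-fold lower when computed against 3 reads in place of 0, and the counting interval of its log2 ratio ended at -4.55.

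*Olr1* and *Tgm2* were the genes that were higher in *Il10rb-/-* MΦs at every age. *Olr1* (ENSMUSG00000030162, chromosome 6 from 129485244 to 129507165) had 102, 253 and 731 normalized counts in *Il10rb+/-* MΦs and 816, 696 and 3618 in *Il10rb-/-* MΦs. The groups overlapped narrowly, since the 3-week knockout value lay below the 12-week control value. The log2 ratio was 3.00 at 1 week (2.69 to 3.32), 1.46 at 3 weeks (1.16 to 1.77) and 2.31 at 12 weeks (2.23 to 2.39), which are 7.99-, 2.75- and 4.95-fold higher.

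*Tgm2* (ENSMUSG00000037820, chromosome 2 from 158116402 to 158146436) had 1491, 3387 and 9468 normalized counts in *Il10rb+/-* MΦs. In *Il10rb-/-* MΦs it had 4291, 10042 and 43773. It was higher in the knockout at each age and higher at each later age in both genotypes, so that the genotypes overlapped only across ages. The log2 ratio was 1.52 at 1 week (1.43 to 1.62), 1.57 at 3 weeks (1.49 to 1.65) and 2.21 at 12 weeks (2.19 to 2.23), or 2.88-, 2.96- and 4.62-fold. Of its exons, 1003 bases overlap *Rprd1b* and *Gm20412* on the other strand, and the strand setting of the counting is not given in the sources used here.

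**Figure D2:**
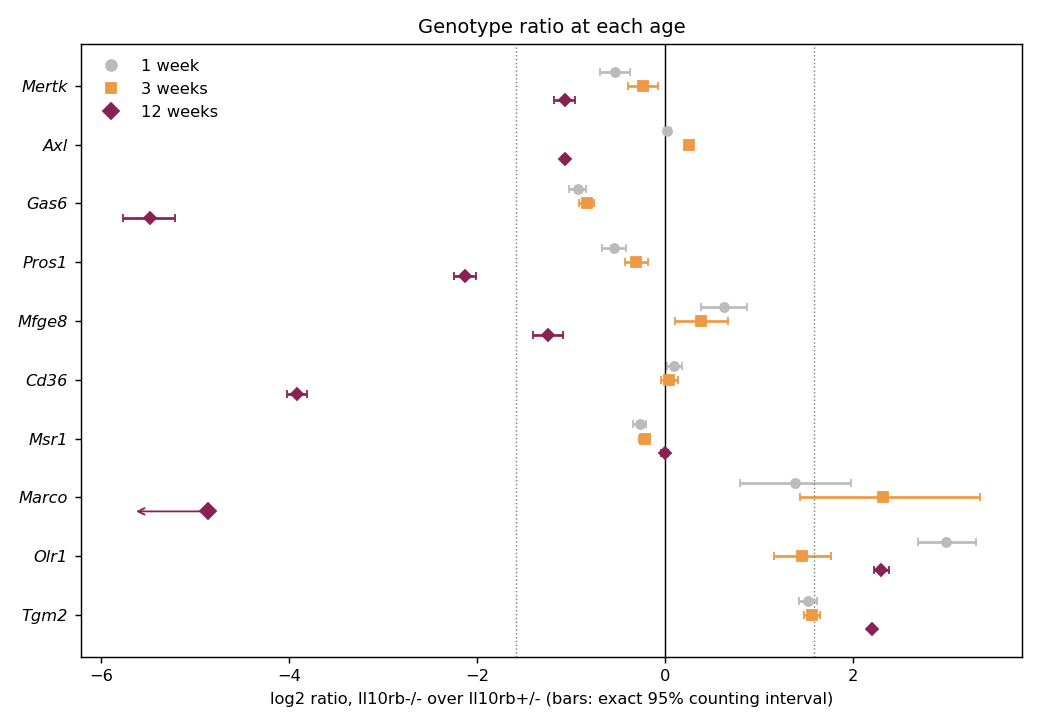
Log2 ratio of *Il10rb-/-* over *Il10rb+/-* normalized counts (x axis) for the 10 genes (y axis) at 1 week (grey circles), 3 weeks (orange squares) and 12 weeks (purple diamonds). Bars are exact 95% counting intervals, dotted lines mark 3-fold, and the arrow on *Marco* marks a value against 3 reads, a lower bound of the size. The 12-week values lie farthest to the left for *Mertk*, *Axl*, *Gas6*, *Pros1*, *Mfge8*, *Cd36* and *Marco*.

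More of the 10 genes, and more of all genes, were over 3-fold apart at 12 weeks than at the younger ages. The 10 genes were chosen with earlier results of these data known, so their counts are descriptive. At 1 week, 1 of the 10 genes was over 3-fold (*Olr1*, higher), and 3.5% of the 11067 genes were, or 2.75% counting higher genes only. At 3 weeks it was also 1 of 10 (*Marco*, higher), against 1.98% of all genes, or 1.34% counting higher genes only. At 12 weeks 6 of 10 were over 3-fold, with *Olr1* and *Tgm2* higher and *Gas6*, *Pros1*, *Cd36* and *Marco* lower. The share among all genes was then 14.0%, made of 4.03% higher and 9.99% lower. The median log2 ratio of the 10 genes was 0.06, 0.15 and -1.16 at 1, 3 and 12 weeks, and that of all tested genes was -0.04, 0.02 and 0.04. At all 3 ages *Mertk*, *Gas6* and *Pros1* were lower, as were 17.2% of all genes, and *Olr1* and *Tgm2* were higher, as were 17.4%. Of the other 5 genes, *Axl*, *Mfge8*, *Cd36* and *Marco* differed in direction between ages. *Msr1* was lower at 1 and 3 weeks and level at 12 weeks.

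The genotypes were compared over the 3 ages with limma, with age as a term, which is the only test of genotype that the design allows. The error term comes from how much the genotype difference varied between ages, and its p-values measure only the spread between these libraries. None of the 10 genes passed an adjusted p of 0.05. The difference (*Il10rb-/-* minus *Il10rb+/-*, on the log2(value + 1) scale) was 1.77 for *Tgm2* (SE 0.20, limma adjusted p = 0.39), and it was above 0 at 3 of 3 ages. For *Olr1* it was 2.25 (SE 0.31, limma adjusted p = 0.50), also above 0 at 3 of 3 ages. *Gas6* was at -2.41 (SE 0.93), *Pros1* at -0.99 (SE 0.37) and *Mertk* at -0.61 (SE 0.21), each with a limma adjusted p of 0.63 and below 0 at 3 of 3 ages. The differences of *Axl*, *Mfge8*, *Cd36*, *Msr1* and *Marco* lay between -1.26 and -0.07, with limma adjusted p from 0.65 to 0.96. Before adjustment 5 of the 10 genes had a p under 0.05, as did 845 of the 11067 genes (7.64%). After adjustment limma called 0.0% of the genes, *Il10rb* included, and the lowest adjusted p was 0.0649.

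This outcome depended on the 12-week libraries. Without them limma called 46 of the 11067 genes. The error of this fit rests on how alike the 1- and 3-week ratios of a gene were and on the variance trend over genes. *Tgm2* (1.55, limma adjusted p = 0.00146) and *Olr1* (2.22, limma adjusted p = 0.00465) were among the 46. Both were thus past the threshold over the 1- and 3-week libraries, of which the 1-week pools differed in sex and in fibroblast and epithelial markers. Neither was when another age was left out. Without 1 week the limma adjusted p was 0.11 for *Olr1* and 0.12 for *Tgm2*, and without 3 weeks it was 0.18 and 0.38. Without 12 weeks *Gas6* stood at -0.88 (limma adjusted p = 0.0507), *Pros1* at -0.42 and *Mertk* at -0.38, and *Marco* turned to 1.82 (limma adjusted p = 0.0835). Without the 1-week libraries limma called 20 genes and without the 3-week libraries 1 gene.

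With age, *Tgm2* was the one gene of the 10 that was higher at each step in both genotypes. Its log2 ratio of 3 weeks over 1 week was 1.18 in *Il10rb+/-* MΦs (1.08 to 1.29) and 1.23 in *Il10rb-/-* MΦs (1.17 to 1.29). From 3 to 12 weeks it was 1.48 (1.40 to 1.56) and 2.12 (2.10 to 2.15). Among all genes, 11.7% were higher at each step in both genotypes. In *Il10rb+/-* MΦs no gene of the 10 was over 3-fold apart between 1 and 3 weeks (6.56% of all genes) or between 3 and 12 weeks (6.36%). From 1 to 12 weeks *Olr1* (log2 ratio 2.84) and *Tgm2* (2.67) were over 3-fold higher in the controls, against 12.3% of all genes either way and 9.69% higher. The 1-week control pool differed in sex from the later control libraries, so age and sex cannot be told apart in the control steps from 1 week.

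In *Il10rb-/-* MΦs the step from 1 to 3 weeks also held none of the 10 genes over 3-fold (5.02% of all genes), and the step from 3 to 12 weeks held 6 (14.2% of all genes, 5.75% higher and 8.45% lower). Higher genes made up 40.5% of these, and 24.0% with total-read scaling. *Gas6* had a log2 ratio of -5.37 over this step (-5.65 to -5.10), *Cd36* of -2.95 (-3.07 to -2.83) and *Pros1* of -1.76 (-1.89 to -1.63). *Marco* was 70.0-fold lower when computed against 3 reads in place of 0, with an interval that ended at -5.81. *Olr1* was higher at 2.38 (2.27 to 2.49), and *Tgm2* as given above. The same step in the controls was -0.71 for *Gas6* (-0.78 to -0.64) and 1.01 for *Cd36* (0.93 to 1.09). From 1 to 12 weeks, 5 of the 10 genes were over 3-fold apart in the knockouts (18.7% of all genes), the same as above without *Pros1*. This difference between genotypes could not be tested with 1 library each.

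In the same limma fit, none of the 10 genes passed the test between ages. The contrast of 3 weeks against 1 week also holds the sex difference of the control libraries. *Tgm2* came nearest, with 1.20 between 1 and 3 weeks (SE 0.25, limma adjusted p = 0.26) and 1.80 between 3 and 12 weeks (SE 0.25, limma adjusted p = 0.10), both in 2 of 2 genotypes. *Olr1* was at 1.95 between 3 and 12 weeks (SE 0.38, limma adjusted p = 0.14), and *Gas6* at -3.03 (SE 1.14, limma adjusted p = 0.23). Of all genes, limma called 0.0181% between 1 and 3 weeks and 0.0271% between 3 and 12 weeks. Before adjustment 1 and 3 of the 10 genes had a p under 0.05 in these contrasts, against 8.66% and 20.3% of all genes.

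**Figure D3:**
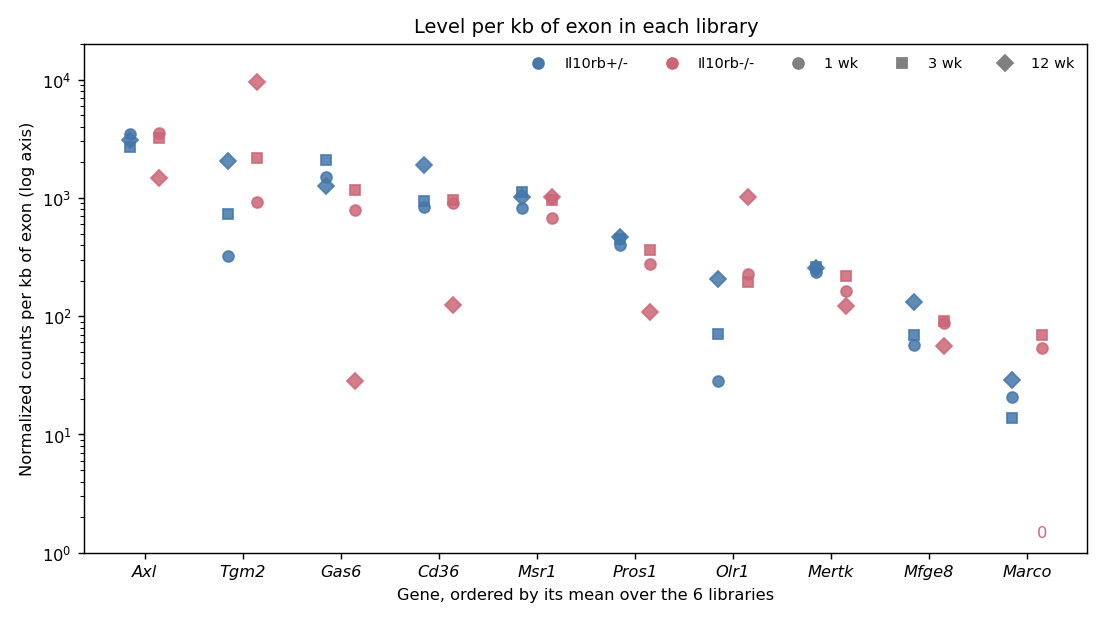
Normalized counts per kb of exon (y axis, log scale) of the 10 genes, ordered by their mean over the 6 libraries (x axis). Blue is *Il10rb+/-* and red *Il10rb-/-*; circles, squares and diamonds are 1, 3 and 12 weeks, and the 0 marks *Marco* without a read. *Axl* has the highest mean and *Marco* the lowest, and *Gas6* and *Olr1* spread over the widest range among the 9 genes with reads in every library.

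Levels between genes were compared per kb of exon. *Axl* had the highest mean over the 6 libraries, at 2914 normalized counts per kb (range 1481 to 3521), followed by *Tgm2* at 2621 (324 to 9499). *Gas6* was at 1136 (28.2 to 2073), *Cd36* at 940 (125 to 1881) and *Msr1* at 936 (682 to 1114). Below them were *Pros1* at 345 (107 to 471), *Olr1* at 290 (28.6 to 1013) and *Mertk* at 209 (123 to 259). *Mfge8* at 82.5 (56.0 to 133) and *Marco* at 31.1 (0 to 69.4) were lowest. Neighbours in this order had ranges that overlapped in 8 of 9 pairs, and the exception was *Msr1* over *Pros1*, whose ranges were separate. *Tgm2* was above *Axl* in 1 library, that of 12-week *Il10rb-/-* MΦs.

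The genes most like *Axl* over the 6 libraries, by Pearson's correlation of log2(value + 1), were *Zranb3* (0.998), *Tnrc6a* (0.993) and *E2f7* (0.993). Those most like *Gas6* were *Pgap3*, *Mrc1* and *Myom1* (0.998 each). *Mrc1*, the mannose receptor CD206, had 14262, 19977 and 12185 normalized counts in *Il10rb+/-* MΦs and 8578, 14106 and 618 in *Il10rb-/-* MΦs. These points share their libraries and scaling, and 687 genes for *Axl* and 804 for *Gas6* had a correlation over 0.9, so the values are descriptive.

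Genes of the wider pathway were read from 5 lists. Among 17 tested genes for other receptors and bridging proteins of apoptotic cells, 9 differed over 3-fold between the 12-week libraries, 3 of them higher (4.03% of all genes) and 6 lower (9.99%) in the knockout, and the list's median log2 ratio was -0.65. None was over 3-fold at 1 or 3 weeks. The complement subunits that opsonise dying cells were lower, with *C1qa* at 29971 and 7106 normalized counts (control first; log2 ratio -2.08) and *C1qc* at 38573 and 8511 (-2.18). Stabilin-1 (*Stab1*), a phosphatidylserine receptor, was lower at 5303 and 732 (-2.86).

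The CD300 lipid receptors went opposite ways at 12 weeks. *Cd300lf* had 420 and 4513 normalized counts (log2 ratio 3.43, interval 3.33 to 3.53), and *Cd300lb* had 4585 and 959 (-2.26, interval -2.34 to -2.18). *Thbs1*, thrombospondin-1, which bridges dying cells to CD36, was higher at 35157 and 137739 (1.97) where *Cd36* was lower. *Timd4*, the phosphatidylserine receptor TIM-4, had 304, 555 and 985 normalized counts in *Il10rb+/-* MΦs and 114, 725 and 1535 in *Il10rb-/-* MΦs. The ratio on the log2 scale was -1.42 at 1 week (-1.80 to -1.05), 0.39 at 3 weeks (0.17 to 0.60) and 0.64 at 12 weeks (0.55 to 0.73), so TIM-4 was not among the receptors that were lower at 12 weeks.

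Of 9 other scavenger receptors tested, 3 were over 3-fold lower at 12 weeks and none higher (median -0.38), against 9.99% and 4.03% of all genes. *Cd163*, the haemoglobin-haptoglobin receptor, had 4112 and 52.2 normalized counts (log2 ratio -6.30), *Mrc1* had a log2 ratio of -4.30, and *Colec12* had 2681 and 507 (-2.40). *Cd163* was also over 3-fold lower at 1 week, with 247 and 55.4 (-2.16), and at 3 weeks it had 4536 and 2901 (-0.64).

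Of 15 genes for engulfment and digestion, 1 was over 3-fold apart at 12 weeks (median 0.24), against 14.0% of all genes. It was the adaptor *Gulp1*, which had 129 reads in the control and 1 read in the knockout library (log2 ratio -6.58, interval -11.90 to -4.08). At 1 week the same gene stood at 1 and 3 reads. In the list of lipid sensing and efflux, 3 of 17 genes were over 3-fold lower at 12 weeks (median -0.02), against 9.99% of all genes. *Apoe*, the apolipoprotein of cholesterol efflux, had 81265 and 2663 normalized counts (-4.93), *Fabp4* 824 and 99.3 (-3.05), and *Lpl* 1919 and 334 (-2.52).

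*Fabp4*, *Lpl* and the liver X receptor gene *Nr1h3* were over 3-fold higher in *Il10rb-/-* MΦs at 1 week, with log2 ratios of 2.74, 2.16 and 1.71, against 2.75% of all genes. The *Fabp4* value rests on 31 knockout and 7 control reads, both under the level of the filter. Thus *Fabp4* and *Lpl* were on opposite sides at 1 and 12 weeks, as *Mfge8* and *Marco* were. Among 11 genes for anti-phagocytic signals, find-me receptors and the proteases that shed MERTK, 2 were over 3-fold lower at 12 weeks (median -0.06), against 9.99% of all genes. They were the find-me receptors *S1pr1*, at 1146 and 95.5 normalized counts (-3.58), and *Cx3cr1*, at 8074 and 906 (-3.16). The sheddase gene *Adam17* had a log2 ratio of 0.77 at 12 weeks and *Adam10* of 0.65. Limma called 0 genes of any of the 5 lists over the 3 ages.

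**Figure D4:**
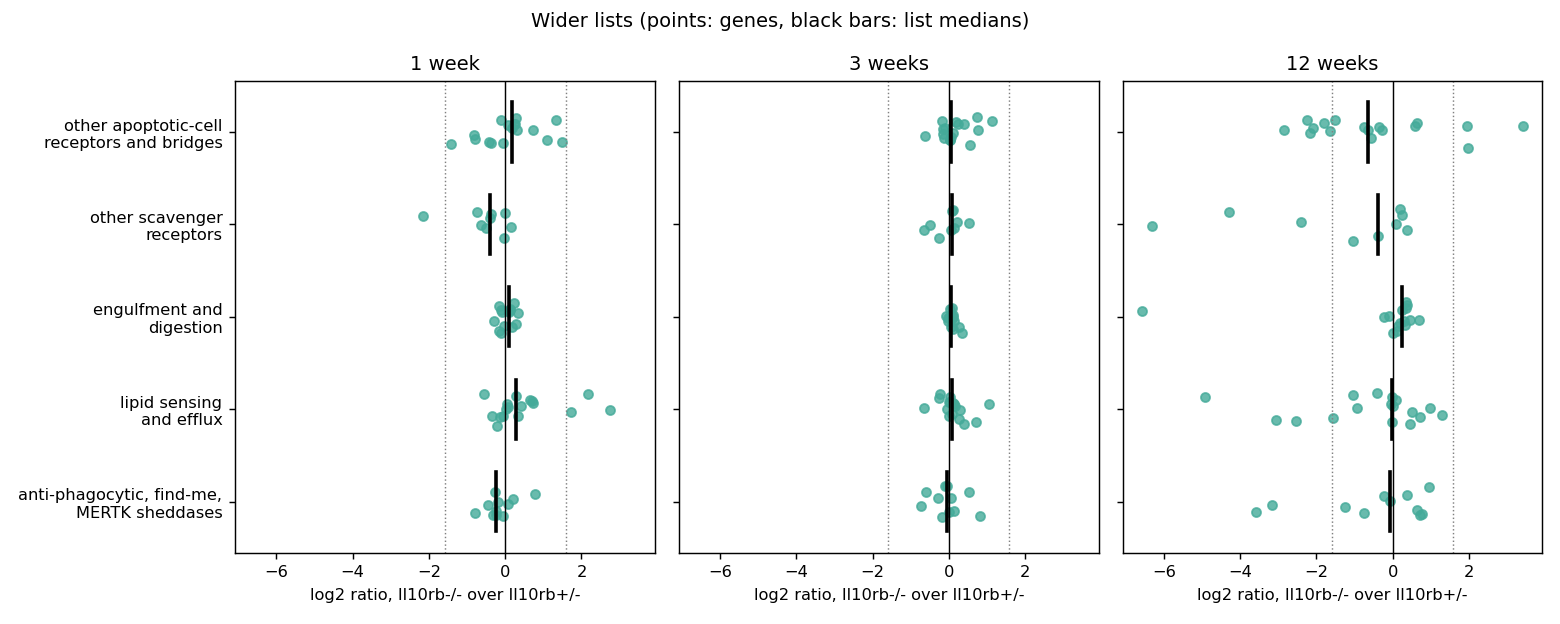
Log2 ratio of *Il10rb-/-* over *Il10rb+/-* normalized counts (x axis) for the genes of 5 wider lists (y axis) at 1, 3 and 12 weeks. Points are genes, black bars list medians and dotted lines 3-fold; *Gulp1* is not drawn at 1 and 3 weeks, where it had 3 reads or fewer in each library. All drawn points lie within 3-fold at 3 weeks, and the 12-week points spread widest to the left.

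Markers of other cell types differed between the 12-week libraries, and some between the 1-week libraries. Several of the 10 genes are not particular to MΦs, and fibroblasts or endothelial cells also express them. They include *Gas6*, *Pros1*, *Mfge8* and *Cd36*, which were lower in the 12-week knockout library. They also include *Olr1* and *Tgm2*, which were higher there. The cells were sorted for CD45, CD11b and CD64, and the 12-week control library held 3927 normalized counts of fibroblast markers. In 12-week *Il10rb-/-* MΦs 6 of 6 fibroblast markers and 4 of 6 endothelial markers were over 3-fold lower, against 9.99% of all genes. The endothelial sum was 1212 normalized counts against 3919. The fibroblast sums at 1 week were 1140 in the knockout and 159 in the control library, and at 3 weeks 2930 and 2808. The endothelial sums were 439 and 636 at 1 week and 987 and 900 at 3 weeks. In bulk RNA, fewer cells of a type and less RNA per cell cannot be told apart, and the part of these markers in the values of the 10 genes was not tested at any age.

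Myeloid markers also moved at 12 weeks. In *Il10rb-/-* MΦs 5 of 7 monocyte markers and 5 of 6 neutrophil markers were over 3-fold higher, against 4.03% of all genes. The monocyte sum was 36034 normalized counts against 19352. At 1 week the neutrophil sums were 1748 in the knockout and 1599 in the control library, and 2409 and 1852 at 3 weeks. The monocyte sums were 13601 and 4990 at 1 week, and 24803 and 28316 at 3 weeks. At 3 weeks 2 of the 7 monocyte markers were over 3-fold higher in the knockout and 1 was over 3-fold lower (1.98% of all genes either way). Of the 10 resident macrophage markers, *Adgre1* (F4/80), *Cx3cr1*, *Mrc1* and *C1qa* were over 3-fold lower at 12 weeks (9.99% of all genes). *Cx3cr1*, *Mrc1* and *C1qa* are also in the wider lists above, so their values are the same measurements. The sum of the resident macrophage list was 665238 against 581376. Without *H2-Ab1* and *Cd14*, which made up most of it, the sum was 85091 against 168396. Dendritic cell markers summed to 40970 against 11473, nearly all from *Ccr7*, which had 38707 and 10331. B and plasma cell markers were over 3-fold lower in 7 of 7 genes, against 9.99% of all genes. The T cell sums were 767 and 942, although 3 of 4 tested T cell markers were higher in the knockout. The 1 lower marker was *Cd2*, at 175 against 748. Epithelial sums were 2443 and 1061 at 12 weeks and 981 and 189 at 1 week. Eosinophil sums were 60.5 and 211 at 12 weeks. The part of these markers was not tested either.

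**Figure D5:**
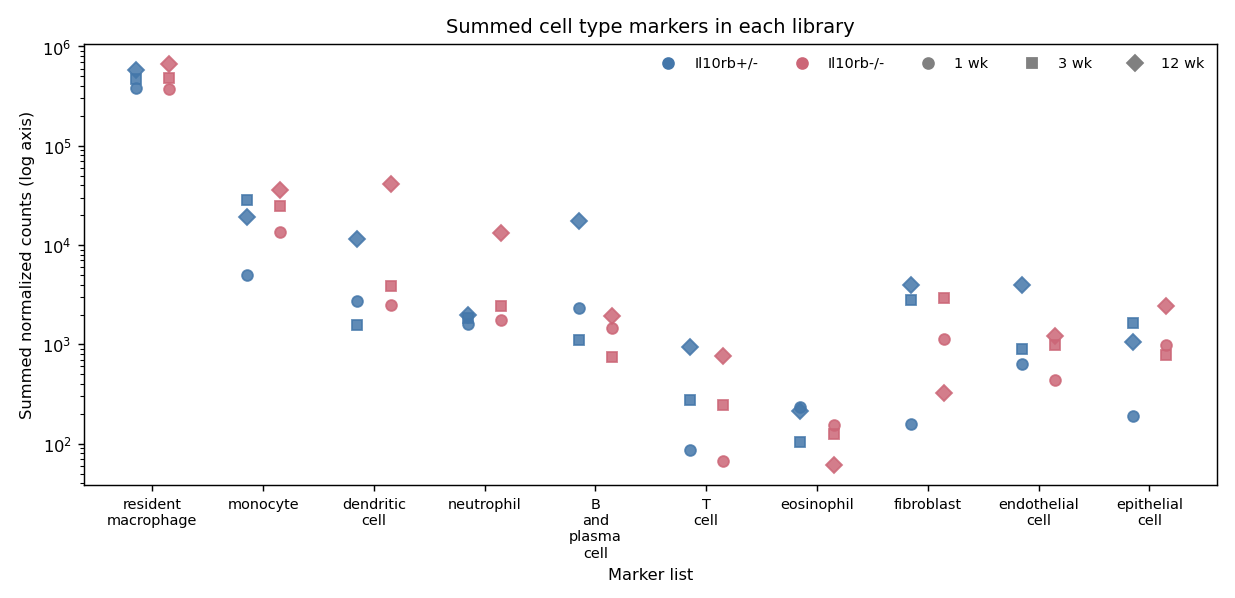
Summed normalized counts of 10 marker lists (y axis, log scale; x axis, the lists) in each library. Blue is *Il10rb+/-* and red *Il10rb-/-*; circles, squares and diamonds are 1, 3 and 12 weeks. The resident macrophage sum is the highest in every library, and the red diamond of 12-week *Il10rb-/-* MΦs lies below its control for the fibroblast, endothelial and B and plasma cell lists and above it for the neutrophil and dendritic cell lists.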

How the data were processed

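RNA of sorted colonic P3/P4 MΦs was measured in 6 libraries. The deposited values are a signal, normalized counts per gene: the authors trimmed reads (Trim Galore), aligned them to mm10 (TopHat), counted them on genes (HTSeq), divided by DESeq size factors and showed 0 as 1. Versions, annotation and strand setting are not given in the sources used here. The values are not scaled by length. Apart from these 1s, 100% of the values in a library were multiples of the worth of 1 read (within 0.01 reads), which was between 0.473 and 2.43 normalized counts per read, so reads were read back and a value of 1 was taken as 0. Low genes are thus least precise in the 3-week *Il10rb+/-* library, where 50 normalized counts are 20.5 reads, against 106 in the deepest. Ratios carry exact (Clopper-Pearson) 95% counting intervals, and over 3-fold was the rule of size. Limma 3.58.1 (R 4.3.3) was fitted to log2(value + 1) of 11067 genes with terms for age and genotype. It used an intensity trend on the variance and Benjamini-Hochberg adjusted p-values. The code was run on simulated data in which genotype effects were the same at every age. That run therefore does not measure how the test performs on these data. No count model was fitted to the reads, by choice. Alternatives were TMM scaling, total-read scaling, a pseudocount of 10, no filter, each term left out and each age left out. The rest was done in Python 3.11.15 (scipy 1.17.1, numpy 2.4.6, matplotlib 3.10.9 and pandas 2.3.3). Coordinates and exon lengths are from GENCODE M21 (GRCm38), which held 14085 of the 14097 genes. The 10 genes and all lists were chosen with earlier results of these data known. Genes named from a wider list were at most 6 of those over 3-fold at 3 or 12 weeks, by the size of the 12-week ratio, with *Tyro3* and *Timd4* always named. *Nr1h3*, *Adam10*, *Adam17*, *Ly6c2*, *Ccr7* and *Adgre1* were named after their values were seen.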

Additional observations from a re-analysis of the deposited data

Results flagged for a closer look

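4 of the 10 genes had genotype ratios of opposite direction at different ages, each with a counting interval clear of 0. Each age has 1 library per genotype, so the difference between ages was not tested. *Mfge8* had a log2 ratio (*Il10rb-/-* over *Il10rb+/-*) of 0.63 at 1 week and 0.39 at 3 weeks, and of -1.24 at 12 weeks. *Axl* was at 0.26 at 3 weeks and -1.07 at 12 weeks. *Cd36* was at 0.10 at 1 week and -3.91 at 12 weeks, and the first of these is a 1.07-fold difference. *Marco* was at 1.38 at 1 week and 2.32 at 3 weeks. At 12 weeks it was at -4.87, computed against 3 reads, since the knockout library held none. All 4 turned to lower values in the 12-week *Il10rb-/-* library, which also had the marker shifts given above, and the part of those shifts was not tested.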

How the results depend on the processing

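Genotype and age-step ratios of the 10 genes were recomputed 210 times under other scalings and a pseudocount of 10. None crossed 3-fold, and 8 changed sign, 2 of them for *Msr1* at 12 weeks and 6 for age steps under total-read scaling. Total-read scaling moved the median log2 ratio of all genes by -0.22 at 12 weeks, and by -0.14 and -0.24 for the control steps to 3 and to 12 weeks and -0.18 and -0.42 for the knockout steps, so a step of that size has no settled direction. With it the higher share of genes over 3-fold went from 85.1% to 75.0% in the controls from 3 to 12 weeks, and in the knockouts as given above. With a pseudocount of 10, the count of all genes over 3-fold went from 387 to 127 (1 week), 219 to 85 (3 weeks), 726 to 444 (controls, 1 to 3 weeks) and 556 to 316 (knockouts, 1 to 3 weeks). For genotype over the ages, limma called 1 gene (*Il10rb*) with a pseudocount of 10 or without the age term, and 1 to 46 genes when an age was left out, against 0. For 3 weeks against 1 week it called 8 genes with a pseudocount of 10, 7 without the filter and 5 without the genotype term, against 2. For 12 weeks against 3 weeks it called 8 with a pseudocount of 10, 0 with total-read scaling and 1 without the genotype term, against 3. Of 180 recomputed limma differences of the 10 genes, 171 kept direction and side of the threshold, and *Tgm2* and *Olr1* passed it without 12 weeks. The reversals were *Axl* (0.14), *Mfge8* (0.51), *Cd36* (0.073) and *Marco* (1.82) without 12 weeks, *Marco* with a pseudocount of 10 (0.15), and with total-read scaling *Cd36* between 1 and 3 weeks (-0.037) and *Mfge8* between 3 and 12 weeks (-0.22). Over the ages left out, *Axl* ranged from -0.52 to 0.14, *Mfge8* from -0.43 to 0.51, *Cd36* from -1.93 to 0.073 and *Marco* from -2.23 to 1.82. The cause of these shifts was not tested. Total-read scaling of the limma fits was added after the data were seen. The planned edgeR and DESeq2 fits were not run. The deposited unit is a normalized value, and the reads read back from it were used for intervals and scalings only. Age as a term pairs the libraries of the same age, and the labels give no replicate numbers for any other pairing. Depth limits *Marco* most, with 11 reads in the 3-week control library.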
